A study of Mus musculus with 6 samples.

Results

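The TRIM (tripartite motif) proteins are a large family of ubiquitin ligases. They are described here in RNA from mouse embryonic fibroblasts (MEFs) with and without YME1L, a protease anchored in the inner membrane of mitochondria. A locus of the deposited count table was a member if one of its gene symbols was Trim followed by a number and at most 1 letter. This rule found 66 of 51499 loci, and these held 68 TRIM symbols. In 5 of the 66 loci a TRIM gene was counted together with a neighbouring gene or another TRIM gene (Hist3h2a,Trim17, then Fbxw10,Trim16, then Trim47,Trim65, then Gnpat,Trim67, and Apela,Trim60,Trim61), so the genes within each of these cannot be told apart.

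A typical TRIM protein carries a RING domain that passes ubiquitin from an E2 enzyme to a target, then B-box zinc fingers and a coiled coil through which it pairs, and then a C-terminal part that selects the target. Classes C-I to C-XI are defined by that C-terminal part. Class C-IV members mostly end in a SPRY domain. Many of them restrict viruses or adjust antiviral signalling, and several are known interferon-stimulated genes. Other classes have unrelated tasks, among them transcriptional corepression (C-VI, with a PHD finger and a bromodomain) and RNA regulation (C-VII, with NHL repeats).

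Poly(A) RNA was sequenced from 3 independent cultures of wild-type (WT, Yme1l loxP/loxP) MEFs and 3 of Yme1l-/- MEFs. Both lines carry SV40 large T antigen and both came from clones grown out after Cre transduction of floxed cells, so that the clone and the genotype cannot be told apart and p-values measure the spread between cultures. The libraries held 33180867 to 34012520 fragments in WT and 34624075 to 49351107 in Yme1l-/-. TRIM loci took 0.191 to 0.197% of the WT fragments and 0.200 to 0.209% of those in Yme1l-/-.

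Yme1l1, the gene that encodes YME1L, was counted at 6327, 6292 and 5968 fragments in WT and at 1327, 1963 and 2067 in Yme1l-/-, a log2 fold change of -2.27 ± 0.05 (SE, n = 3 per genotype). Fibroblast genes were abundant in both lines, with the 12 fibroblast markers summing to 10963 to 11520 CPM (counts per 1000000 fragments, over TMM-scaled library sizes) in WT and 6724 to 7207 CPM in Yme1l-/-. Of the 9 fibroblast markers tested, 1 rose and 7 fell in Yme1l-/- (33.6% and 34.1% of all tested loci), and Thy1 had 6 fragments at most in any library. The 8 macrophage and leukocyte markers summed to 4.17 to 4.52 CPM in WT and 7.38 to 8.01 CPM in Yme1l-/-, the 7 epithelial markers to 33.2 to 35.1 CPM and 0.373 to 0.686 CPM, the 5 endothelial markers to 0.949 to 1.56 CPM and 1.94 to 2.17 CPM, and the skeletal muscle markers to 0.429 to 0.604 CPM and 2.23 to 3.32 CPM. Of the leukocyte markers, Cd68 (log2 fold change 1.04) and Cd14 (0.37) rose, Lyz2, Csf1r and Itgam were higher in every Yme1l-/- library at 29 fragments at most, Adgre1 and Tyrobp were at 0 in every library and Ptprc had 1 fragment at most. The rise of the muscle sum was carried by Des (15, 15 and 13 fragments in WT and 77, 129 and 163 in Yme1l-/-, log2 fold change 2.60), with Myog and Myf5 at 0 and Myod1 at 5, 1 and 0 fragments in WT and 0 in Yme1l-/-. Krt18 made up most of the epithelial sum in WT. The part of these differences in the TRIM results was not tested. In bulk RNA, fewer cells of a type and less RNA per cell cannot be told apart.

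Most of the TRIM family that could be tested differed between the lines, in both directions, and the largest differences were increases of class C-IV genes on chromosome 7. Of the 66 loci, 41 had enough fragments for the test, which was edgeR's quasi-likelihood test over all 13867 loci that passed the same filter, with Benjamini-Hochberg adjustment and a call at an adjusted p under 0.05. Trim14 and Trim69 had under 10 fragments in a WT library and passed that filter through their Yme1l-/- libraries, so their being higher there was partly given by the filter. A call was made for 34 of the 41, where 67.7% of all tested loci were called. The called members were 21 that rose (33.6% of all tested loci) and 13 that fell (34.1% of all tested loci). At least 2-fold changes were found for 10 members that rose (9.1% of all tested loci) and for 2 that fell (8.63% of all tested loci). The 3 WT and 3 Yme1l-/- libraries did not overlap in 33 of the 41 members, against 71.9% of all tested loci. The median log2 fold change of the 41 members was 0.32, beside -0.0041 over all tested loci, and it was 0.0024 over the 34 members outside the chromosome 7 group described next. It was 0.17 without merged loci and -0.00067 with the median of each chromosome removed.

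**Figure D1:**
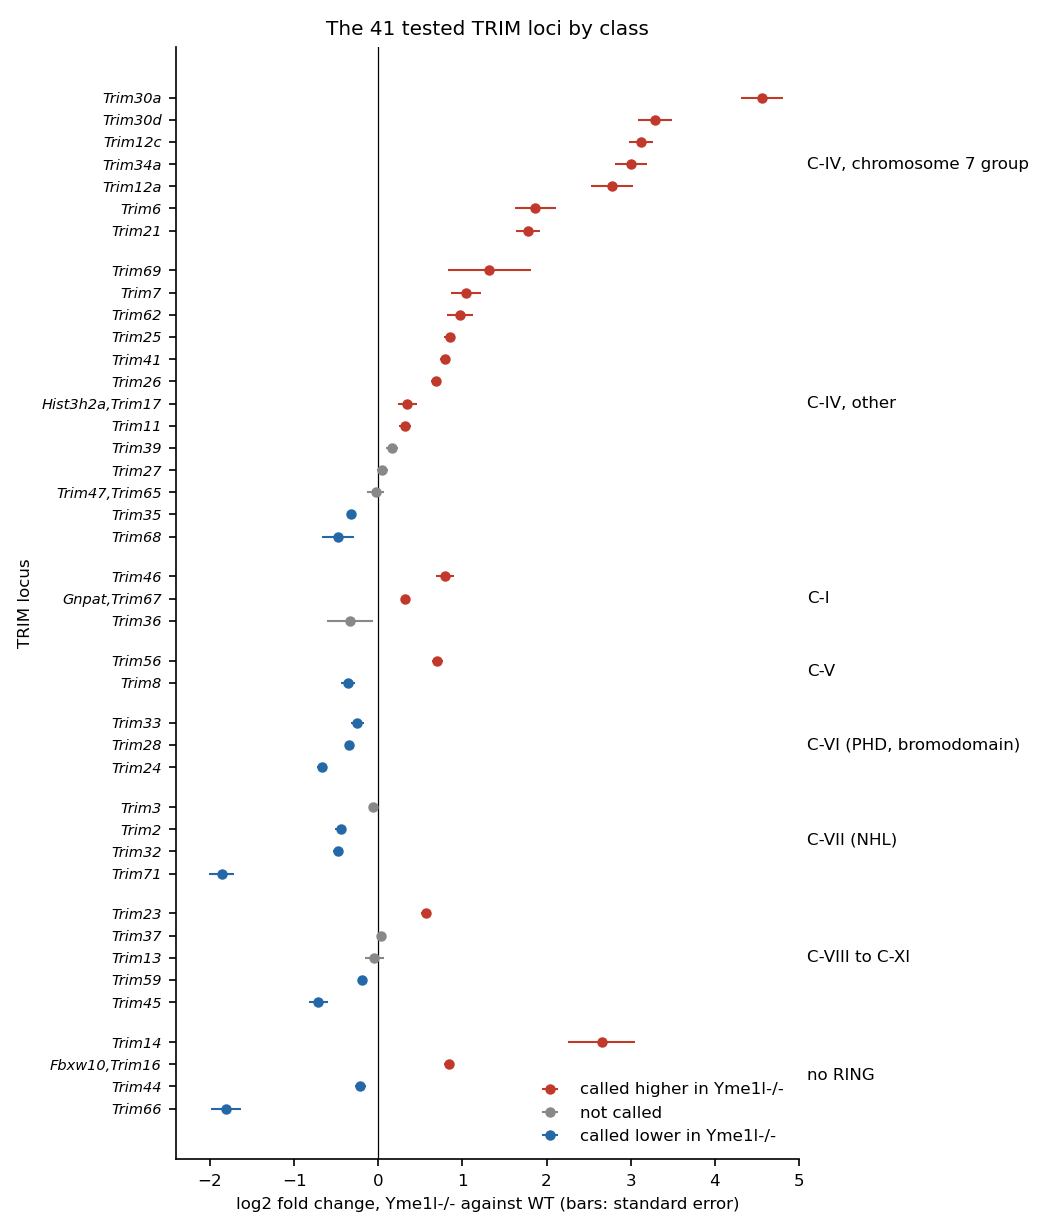
Log2 fold change (x axis, Yme1l-/- against WT) of the 41 tested TRIM loci (y axis), grouped by class, with bars of 1 standard error (3 cultures per genotype) and colours for the call. The 7 loci of the chromosome 7 group lie between 1.78 and 4.56, all 3 of class C-VI and all 4 of class C-VII lie below 0, and the other classes have loci on both sides of 0.

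The chromosome 7 group holds 11 class C-IV genes, most but not all with a SPRY domain. They are related to the human TRIM5, TRIM6, TRIM21, TRIM22 and TRIM34 antiviral factors. All 7 that could be tested rose at least 2-fold (9.1% of all tested loci), with a median log2 fold change of 3.01 (-0.0041 over all tested loci). Trim30a, a ligase known to damp NF-κB signalling through the adaptors TAB2 and TAB3, had 0.393, 0.764 and 0.521 CPM in WT and 9.94, 13.7 and 16.1 CPM in Yme1l-/-. Every Yme1l-/- culture was thus more than 10-fold above every WT culture, and the fitted change of 4.56 ± 0.25 on the log2 scale (adjusted p = 1.51e-07) was the largest of the family. Its neighbour and closest relative Trim30d rose from 0.332, 0.580 and 0.429 CPM to 3.89, 4.78 and 4.48 CPM, a log2 fold change of 3.29 ± 0.21 (adjusted p = 1.02e-07).

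Trim12c and Trim12a are mouse relatives of human TRIM5, which recognises retroviral capsids. Trim12c had 1.42, 1.5 and 1.65 CPM in WT and 11.1, 13.8 and 15.0 CPM in Yme1l-/- (log2 fold change 3.13 ± 0.14, adjusted p = 7.43e-09). Trim12a, whose coding sequence is shorter (891 bases, against 1491 in Trim12c), had 0.423, 1.04 and 0.735 CPM in WT and 4.37, 4.92 and 5.77 CPM in Yme1l-/- (log2 fold change 2.78 ± 0.24, adjusted p = 1.55e-06). The lowest Yme1l-/- culture was about 4 times as high as the highest WT culture for Trim12a and further apart for Trim12c.

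Trim34a, a relative of the human capsid-binding factor TRIM34, had 0.544, 0.489 and 0.490 CPM in WT and 3.51, 4.11 and 4.63 CPM in Yme1l-/- (log2 fold change 3.01 ± 0.19, adjusted p = 9.40e-08). Trim6, which makes free ubiquitin chains that activate the kinase IKKε, rose less, from 0.937, 0.825 and 1.47 CPM to 2.86, 4.60 and 4.26 CPM (log2 fold change 1.87 ± 0.24, adjusted p = 3.97e-05). Trim21, the cytosolic antibody receptor, rose from 2.33, 3.42 and 2.94 CPM to 9.06, 9.64 and 11.1 CPM (log2 fold change 1.78 ± 0.15, adjusted p = 8.58e-07). In none of the 7 genes did the genotypes overlap, which was so for 71.9% of all tested loci. The 11 loci of the group added up to 7.82 ± 1.23 CPM (SD over 3 cultures) in WT against 54.1 ± 8.47 CPM in Yme1l-/-. The group was a small share of the family, whose 66 loci added up to 1995 ± 32.3 CPM against 2009 ± 36.5 CPM.

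**Figure D2:**
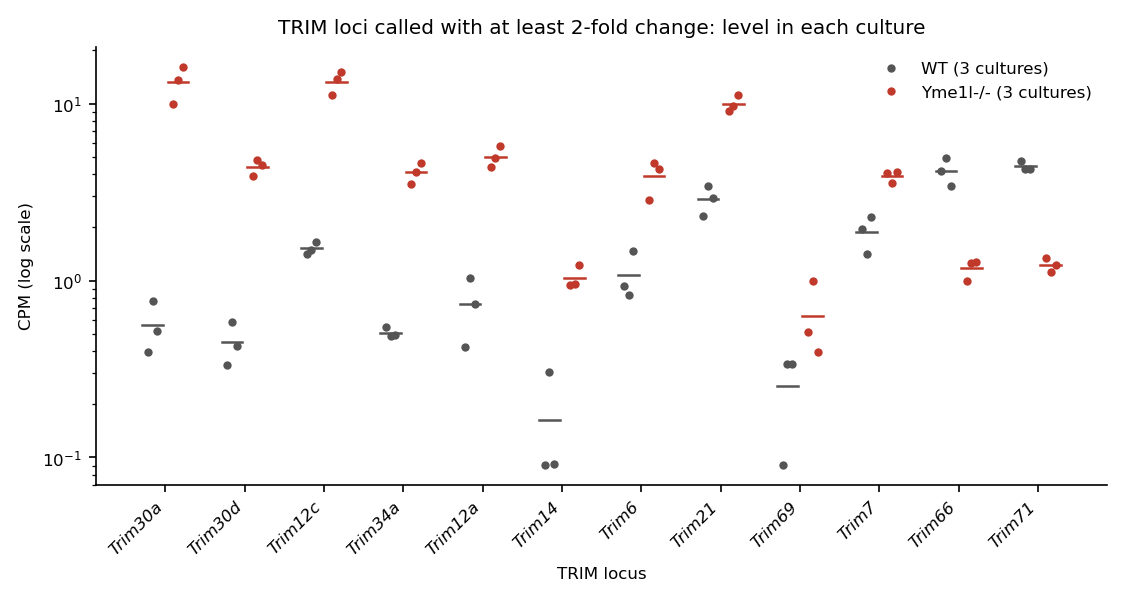
CPM in each culture (y axis, log scale) of the 12 TRIM loci called with at least 2-fold change (x axis), with WT in grey, Yme1l-/- in red and a line at the mean of 3 cultures. The points of the genotypes are apart in all 12 loci (71.9% of all tested loci), and the gap is narrowest for Trim69.

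The other 4 genes of the group stayed too low to test. Trim5 had 1, 0 and 3 fragments in WT and 4, 3 and 4 in Yme1l-/-. Trim34b had 0, 1 and 3 fragments in WT and 2, 1 and 7 in Yme1l-/-. Trim30b and Trim30c had no fragment in any WT library, which allows up to 3 fragments in a library by counting error alone, and in Yme1l-/- had 0, 0 and 3 (Trim30b) and 0, 2 and 1 (Trim30c). The genotypes overlapped for Trim34b and met at 3 fragments for Trim5, so no difference was detectable at this depth.

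Several of these genes are close copies of each other, which bears on how well their reads can be assigned. The coding sequences of Trim34a and Trim34b (1455 bases each) were identical at 98.2% of aligned bases, those of Trim12c and Trim5 at 96.6%, and those of Trim30a and Trim30d at 90.2%. Of all 100-base windows along a transcript, the length of 1 read, 22.7% in Trim34a also occurred in Trim34b, 11.3% in Trim12c and 11.3% in Trim12a also occurred in another gene, chiefly Trim5, and 4.79% in Trim30a and 9.75% in Trim30d occurred in each other. How reads with several placements were counted is not given in the sources used here, so the split within these pairs is uncertain, whereas Trim6 and Trim21 shared no such window with another annotated gene. Trim30d also overlaps Gm16464 by 6795 bases on the same strand, and Gm16464 (22, 43 and 38 fragments in WT, 35, 55 and 37 in Yme1l-/-) was not called, at -0.16 ± 0.28 on the log2 scale.

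Promoter sequence was examined because the genes of the group moved together. The letters searched were GAAA, any 2 bases and GAAA again, the core of the interferon-stimulated response element, on both strands of the RefSeq windows (GRCm38.p6) that run from 250 bases before to 50 bases after each annotated start. They occurred in 3.44% of 32851 windows and for 3.99% of 27025 genes. Of the TRIM symbols, 53 had a window and 9 of them (17.0%) held the letters. Among the 7 tested genes of the chromosome 7 group they were in 6, all but Trim6. The stretches below are shown because they hold those letters in the 7 members that rose and had them, Trim26 on chromosome 17 among them, and in Trim5, a copy that was not tested. They are written 5′ to 3′ along the gene, with the letters of the match, or of its reverse complement, in capitals.
Trim30a, chr7:104465210-104465259, minus strand: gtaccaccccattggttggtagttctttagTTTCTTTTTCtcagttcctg
Trim30d, chr7:104507871-104507920, minus strand: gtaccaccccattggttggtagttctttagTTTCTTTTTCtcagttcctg
Trim12c, chr7:104353359-104353408, minus strand: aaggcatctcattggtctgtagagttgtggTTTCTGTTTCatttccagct
Trim12a, chr7:104315466-104315515, minus strand: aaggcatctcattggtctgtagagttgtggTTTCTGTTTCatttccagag
Trim5, chr7:104288136-104288185, minus strand: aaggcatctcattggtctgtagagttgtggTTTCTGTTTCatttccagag
Trim34a, chr7:104244437-104244486, plus strand: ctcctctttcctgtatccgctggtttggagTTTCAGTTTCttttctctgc
Trim21, chr7:102565453-102565499, minus strand: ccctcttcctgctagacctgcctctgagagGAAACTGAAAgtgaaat
Trim26, chr17:36836956-36837005, plus strand: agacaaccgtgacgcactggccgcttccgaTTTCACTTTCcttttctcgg

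The stretches of Trim30a and Trim30d were the same letter for letter, as were those of Trim12a and Trim5. That of Trim12c differed from those of Trim12a and Trim5 only in its closing letters, so that these copies are not separate examples. Trim5 carried the same stretch as Trim12a and had at most 4 fragments in a library. Trim30a has a second annotated start, whose window also held the motif. In Trim21 and in Trim26 a further match overlapped the one shown. The match began 36 bases before the start in Trim30a, 41 before it in Trim30d, 29 before it in Trim12c and 160 before it in Trim26, and lay just past the start in Trim12a and Trim34a (base 11 in both) and in Trim21 (base 14). The letters were in 7 of the 17 windowed members that rose, in 1 of the 10 that fell (Trim2), in 0 of the 5 not called, and in 1 of the 21 not tested (Trim5). TTCNNNGAA, the core of the gamma-activated site, was in the windows of 9.55% of all genes and of 6 of the 53 TRIM symbols, of which Trim46 rose, Trim45 fell and the other 4 were not tested. A match of letters is a description of the window and not of binding. No window was found for Trim3, Trim8, Trim11, Trim14, Trim16, Trim17, Trim29, Trim33, Trim35, Trim36, Trim43b, Trim43c, Trim50, Trim55 and Trim65.

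On the map (GRCm38), the genes from Trim6 (chr7:104218793-104235152) to Trim30d (chr7:104470014-104507849) follow each other with gaps of 1.15 to 14.0 kb, and Trim21 (chr7:102557921-102565486) lies apart from them. The whole stretch from Trim21 to Trim30d, 1950 kb, held 153 loci, of which 12 were TRIM loci. Olfactory receptor genes made up 103 of the other 141 loci, and 137 of the 141 had 3 fragments at most in every library. Only 2 of these other loci could be tested, Dnajc19-ps, which rose (log2 fold change 0.93), and Gm16464. Trim68 is also a class C-IV gene of this stretch, 112 kb from Trim21, and it was lower, at 2.24, 2.99 and 3.55 CPM in WT and 1.86, 2.32 and 2.10 CPM in Yme1l-/-. The genotypes overlapped for Trim68 and its call (log2 fold change -0.48 ± 0.19, adjusted p = 0.0407) was lost without WT replicate 2 (-0.46), WT replicate 3 (-0.32), Yme1l-/- replicate 1 (-0.40) or Yme1l-/- replicate 3 (-0.47). It was also lost with upper-quartile scaling (-0.42), with DESeq2 (-0.48) and with libraries thinned to the smallest total (-0.45).

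Within Yme1l-/-, all 7 tested genes of the group were lowest in replicate 1, whose library was the smallest of that genotype. Of all 1262 loci called at least 2-fold higher, 47.5% were lowest in replicate 1, and of the other 14 TRIM loci that rose, 9 were. The part of depth or of the culture in this order was not tested.

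Outside chromosome 7, Trim14 rose most. Trim14 has no RING domain and is known as an adaptor of the mitochondrial antiviral protein MAVS. It was counted at 3, 10 and 3 fragments in WT and 33, 48 and 62 in Yme1l-/-, which is 0.0906, 0.305 and 0.0919 CPM against 0.943, 0.952 and 1.22 CPM (log2 fold change 2.66 ± 0.40, adjusted p = 1.11e-04). The genotypes were well apart, but WT rested on a handful of fragments. The log2 fold change was 3.47 without WT replicate 2, 2.37 without WT replicate 1 and 2.38 without WT replicate 3. Coro2a, which ends 795 bases upstream of Trim14 on the same strand and shares its deposited span, went the other way, from 214, 221 and 201 fragments to 36, 70 and 64 (log2 fold change -2.38). Nans, which overlaps Trim14 by 9852 bases on the opposite strand, had 2233 to 3814 fragments per library and a log2 fold change of 0.14.

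Trim69, a class C-IV protein of the microtubule cytoskeleton, had 3, 11 and 11 fragments in WT and 18, 50 and 20 in Yme1l-/-, which is 0.0906, 0.336 and 0.337 CPM against 0.514, 0.992 and 0.393 CPM (log2 fold change 1.32 ± 0.49, adjusted p = 0.0335). The highest WT and the lowest Yme1l-/- culture were close, at 0.337 and 0.393 CPM. Its call was lost without WT replicate 1 (log2 fold change 0.92) and without Yme1l-/- replicate 2 (0.81). B2m, the light chain of MHC class I, ends 7616 bases away on the same strand within the same deposited span, was counted at 9587, 10355 and 8756 fragments in WT and 25683, 36037 and 36991 in Yme1l-/-, and had nearly the same log2 fold change (1.31). Whether B2m transcripts entered the Trim69 count was not tested.

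Other class C-IV members rose by smaller amounts. Trim7, first described as a partner of glycogenin, was at 1.96, 1.41 and 2.30 CPM in WT and 4.03, 3.57 and 4.08 CPM in Yme1l-/- (log2 fold change 1.04 ± 0.18, adjusted p = 2.99e-04), with no overlap. Trim62, a regulator of epithelial polarity, followed at 0.97 ± 0.15. Trim25, the ligase that works with the RNA sensor RIG-I and the antiviral protein ZAP, rose from 62.3 ± 2.09 CPM to 112 ± 10.1 CPM (SD, log2 fold change 0.85 ± 0.07). Trim41, which targets viral nucleoproteins, rose by 0.79 ± 0.05, and Trim26 by 0.68 ± 0.05. Trim41 overlaps Rack1 by 31 bases on the opposite strand, and Rack1, at 43340 to 90430 fragments per library, rose by 0.46. Trim7 overlaps Gm12184 by 516 bases on the opposite strand, and Gm12184, at 666 to 980 fragments per library, had a log2 fold change of -0.26. Trim11 (0.32) and the Hist3h2a,Trim17 locus (0.35), whose TRIM genes are 4.99 kb apart, rose least, and the latter call was lost without WT replicate 3 (0.29). Neither was higher with the median of each chromosome removed (-0.04 for Trim11 and -0.01 for Hist3h2a,Trim17).

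Of the 13 tested class C-IV members outside the chromosome 7 group, 8 rose, 2 fell (Trim35 and Trim68) and 3 were not called. Of all tested loci 33.6% rose and 34.1% fell, and 76.9% of the 13 were called beside 67.7% of all tested loci. With the median of each chromosome removed, Trim11 and Hist3h2a,Trim17 lost their calls and the Trim47,Trim65 locus was called lower. Trim35, which binds the pyruvate kinase isoform PKM2, went from 134, 130 and 134 CPM to 107, 108 and 102 CPM (log2 fold change -0.33 ± 0.05, adjusted p = 5.79e-05). The values of those not called were 0.17 for Trim39, 0.05 for Trim27 and -0.03 for the Trim47,Trim65 locus. Trim39 missed the threshold narrowly (adjusted p = 0.0532) and was called without Yme1l-/- replicate 1 (0.24), under upper-quartile scaling (0.23), with no filter (0.16) and with the replicate block (0.16). In the small classes, Trim56, a class C-V ligase linked to the DNA-sensing adaptor STING, rose from 61.4 ± 3.77 CPM to 99.8 ± 7.57 CPM (SD, log2 fold change 0.70 ± 0.06), and Trim8 of the same class fell by 0.36. Trim46 of class C-I, which bundles microtubules in axons, rose by 0.79 and the Gnpat,Trim67 locus by 0.32, while Trim36 of that class was at -0.33 ± 0.28 and not called.

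All 3 members of class C-VI, the transcriptional intermediary factors, fell, as did 34.1% of all tested loci. Trim28 (KAP1), the corepressor that KRAB zinc finger proteins bring to retroelements, went from 504, 458 and 477 CPM to 389, 382 and 362 CPM (log2 fold change -0.34 ± 0.05, adjusted p = 1.00e-04). Trim24, a nuclear receptor cofactor and p53 ligase, went from 68.7, 72.9 and 72.6 CPM to 42.7, 45.7 and 45.8 CPM (log2 fold change -0.67 ± 0.05, adjusted p = 3.77e-07). Trim33, which acts with SMAD proteins, went from 66.3, 67.7 and 74.6 CPM to 52.4, 64.2 and 58.9 CPM (log2 fold change -0.25 ± 0.07, adjusted p = 0.0120). The genotypes did not overlap in any of the 3, as in 71.9% of all tested loci. Trim33 came within a few CPM, and its call was lost without WT replicate 3 (-0.20).

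Of the 4 members of class C-VII, 3 fell in Yme1l-/-, beside 34.1% of all tested loci. Trim71 (LIN-41), a let-7 target of early embryos and stem cells, had 4.71, 4.28 and 4.29 CPM in WT and 1.34, 1.11 and 1.22 CPM in Yme1l-/- (log2 fold change -1.86 ± 0.15, adjusted p = 6.43e-07). The Yme1l-/- cultures were at 27.6% of the WT mean. Trim32, mutated in a limb-girdle muscular dystrophy, fell by 0.48 and Trim2, a ligase of neurofilament light chain, by 0.45, while Trim3 was at -0.06 ± 0.05 and not called. Trim66, a relative of class C-VI without a RING domain, fell about as far as Trim71, from 4.17, 4.92 and 3.40 CPM to 1.00, 1.25 and 1.28 CPM (log2 fold change -1.81 ± 0.18, adjusted p = 4.53e-06), again with no overlap.

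Among the remaining members, Trim23, which carries an ARF GTPase domain, rose by 0.56 and the Fbxw10,Trim16 locus by 0.84. Trim45 fell by 0.71. Trim59, a membrane-bound member, had 181, 187 and 176 CPM in WT and 162, 160 and 153 CPM in Yme1l-/- (log2 fold change -0.19 ± 0.04, adjusted p = 0.00211). Trim44, which has a zinc finger of the deubiquitinase type in place of a RING, had 157, 165 and 182 CPM in WT and 134, 151 and 150 CPM in Yme1l-/- (-0.21 ± 0.06, adjusted p = 0.0126), and its call was lost without WT replicate 3 and under upper-quartile scaling (-0.15 in both). The genotypes did not overlap for Trim59 or Trim44, as in 71.9% of all tested loci, but the margins were small. Trim37, a centriole and peroxisome ligase, was at 90.2, 93.7 and 92.7 CPM and 97.2, 93.4 and 93.0 CPM and was not called (0.04 ± 0.04), and Trim13 of the endoplasmic reticulum was at -0.04 ± 0.11.

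To compare levels between genes, the authors' FPKM (fragments scaled by transcript length and by library size, with 1 combined value per genotype and no replicate error) were used. Trim28 was the highest TRIM locus in both genotypes (242 FPKM in WT and 198 in Yme1l-/-), followed by Trim59 (68.5 and 60.7) and Trim27 (54.9 and 56.6). The 7 tested genes of the chromosome 7 group were at 0.150 to 1.37 FPKM in WT, ranks 28 to 40 of the 66 loci, and at 1.15 to 4.44 FPKM in Yme1l-/-. Their levels after the increase thus remained below those of Trim25 (21.7 FPKM in Yme1l-/-) and Trim56 (14.9). Loci at 10 FPKM or more numbered 19 in WT and 21 in Yme1l-/-, those from 1 to under 10 FPKM 9 and 15, and those listed at 0 numbered 12 and 13.

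**Figure D3:**
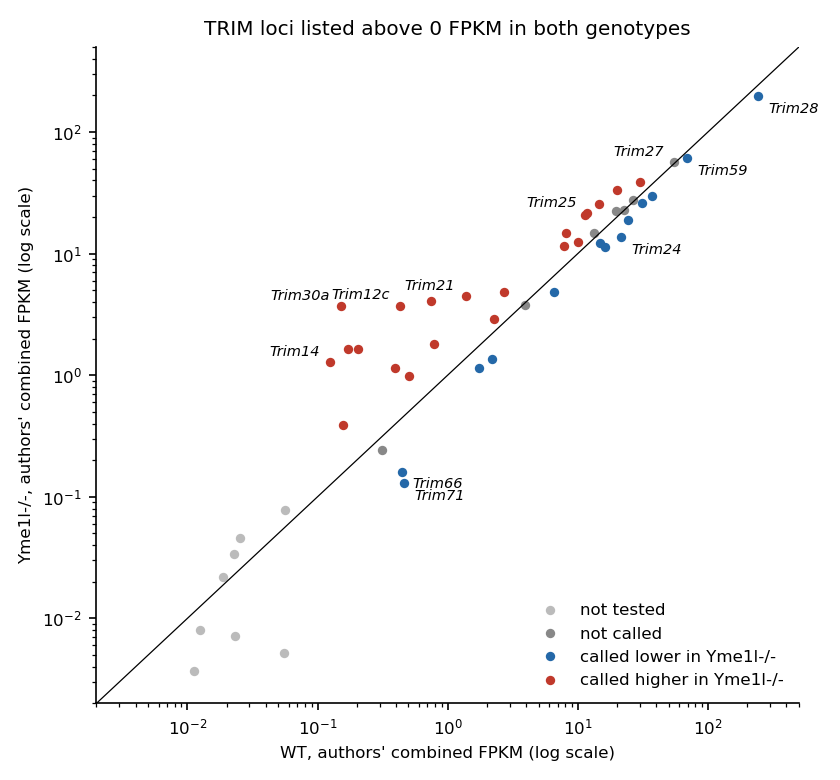
The authors' combined FPKM in WT (x axis) and Yme1l-/- (y axis), both on log scales, of the 49 TRIM loci listed above 0 in both, coloured by the call of the count test, with the line of equality. Trim28 is the highest at 242 and 198, and Trim30a stands farthest above the line, at 0.150 and 3.70.

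The 25 loci that were not tested had 8 fragments at most in a library. No library held a fragment of 8 of them, and another 12 had 1 to 3 fragments in their highest library. They include the muscle ligases of class C-II, namely Trim63 with 0 fragments, Trim55 with 1 and Trim54 with 6 at most, and Trim42 of class C-III with 0. Trim72, a membrane repair protein of muscle, had 2, 3 and 4 fragments in WT and 6, 8 and 7 in Yme1l-/-, and Trim10 had 5 at most. On chromosome 17 the neighbours of Trim26 (Trim15, Trim10, Trim40 and Trim31, with gaps of 1.29 to 7.99 kb) were all among the untested loci. These counts were too few for the test.

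Some chromosomes that carry TRIM loci had a median log2 fold change away from 0. On chromosome 11, where the median of all 1112 tested loci was 0.36 on the log2 scale, 6 of 8 TRIM loci rose (33.6% of all tested loci) and none fell. With the median of each chromosome removed, Trim11 (-0.04) and Hist3h2a,Trim17 (-0.01) were no longer higher, whereas Trim7 (0.68), Trim25 (0.49), Fbxw10,Trim16 (0.48) and Trim41 (0.43) were. Trim37 became lower (-0.32) and so did the Trim47,Trim65 locus (-0.39), both called, and Trim59 (-0.07) and Trim33 (-0.13) of chromosome 3, whose median was -0.12, lost their calls. The median of chromosome 7 was -0.01, and the values of its TRIM group moved by that amount alone when it was removed. Whether the number of chromosomes differed between the lines was not tested.

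**Figure D4:**
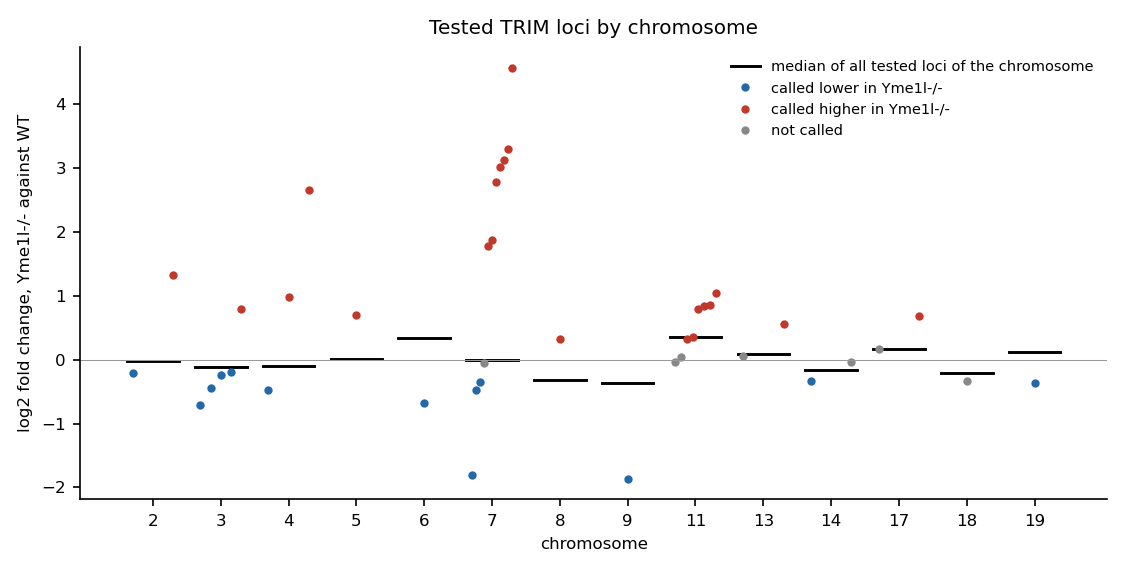
Log2 fold change (y axis) of the 41 tested TRIM loci by chromosome (x axis), coloured by call, with a black line at the median of all tested loci of each chromosome. On chromosome 7 the 7 loci of the antiviral group stand above a median of -0.01, and on chromosome 11 the median itself is 0.36.

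Of the 5 TRIM proteins with other symbols, 3 were tested. Mid1, the Opitz syndrome ligase, rose (log2 fold change 0.61), while Pml (0.06) and Mid2 (-0.13) were not called. Of 12 E1 and E2 enzymes that feed ubiquitin to TRIM ligases, 8 fell, 1 rose and 3 were not called, where 34.1% of all tested loci fell and 33.6% rose. Of the 8 that fell, 2 were counted with other genes (Sumo3,Ube2g2 and Gm20431,Tmem189,Ube2v1). The median log2 fold change of the 12 was -0.29 beside -0.0041 over all tested loci. The member that rose was Ube2l6 (2.01, from 4.37 to 17.5 CPM), which is known as the E2 of ISG15 conjugation, and the largest decreases were those of Ube2d2a (-0.65) and Ube2e3 (-0.45).

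Of 12 corepressor partners of TRIM28, 6 rose, 2 fell and 4 were not called, with a median of 0.07. The 8 calls among 12 were near the 67.7% of all tested loci. Chd3, a remodeller that binds TRIM28, rose by 0.63 on chromosome 11, and Cbx5, which encodes HP1α, by 0.48 on chromosome 15, where the median of all tested loci was 0.59. The histone methyltransferase gene Setdb1 fell by 0.48. The DNA methyltransferase gene Dnmt1 fell by 0.35 on chromosome 9, where the median of all tested loci was -0.36. Of 16 signalling proteins on which TRIM ligases act, 9 rose, 5 fell and 2 were not called, with a median of 0.34, where 33.6% of all tested loci rose and 34.1% fell. Irf7 (2.57, from 5.35 to 31.7 CPM) and Ddx58, which encodes RIG-I (2.31, from 21.0 to 104 CPM), rose most, and Map3k7 (TAK1) and Tab3, which act upstream of NF-κB, both fell by 0.29.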

How the data were processed

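Poly(A) RNA of 3 WT and 3 Yme1l-/- cultures was sequenced as stranded paired-end libraries. Per the labels and the study's methods, the authors mapped reads to mm10 (Ensembl) with HISAT2 2.0.4, assembled transcripts with StringTie 1.3.3 and used Cufflinks and Cuffdiff 2.2.1. They deposited raw counts per locus and library, and a comparison table with 1 combined FPKM value per genotype, whose columns of fold change, p and significance were not used. Whether counting used strand, and how reads with several placements were counted, is not given in the sources used here.

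The deposited counts were tested with edgeR 4.0.16 (R 4.3.3, TMM, filterByExpr with a minimum count of 10, robust quasi-likelihood, two-sided) and Benjamini-Hochberg adjustment over 13867 loci. SE is the log2 fold change divided by the root of F. The test was checked on simulated counts with few changed loci and the same spread between libraries for every locus. That check does not cover data in which most tested loci were called. Alternatives were other scalings (RLE, upper quartile), DESeq2 1.42.0, other filters, a replicate block, leaving out each culture, thinning to the smallest library, removing chromosome medians, and leaving out merged loci. The deposited span of a locus can hold several overlapping genes, and 12 of the 41 tested TRIM loci shared it with another tested locus, so gene positions and distances are those of GENCODE (GRCm38). Promoter windows are from RefSeq (GRCm38.p6). The members and lists were chosen with earlier results of these data known. Values of every culture (CPM, or fragments for loci too low to test) are given for members called with at least 2-fold change, the chromosome 7 group, class C-VI and the 5 members with the highest mean CPM (Trim28, Trim59, Trim44, Trim35 and Trim37). Trim68 and Trim72 were added after their values were seen. Of each list of related genes, at most 4 called genes were named, the 2 with the highest and the 2 with the lowest log2 fold change, besides genes not called in the list of TRIM proteins with other symbols, and named cell type markers were chosen after their values were seen.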

Additional observations from a re-analysis of the deposited data

How the results depend on the processing

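Between 30 and 35 TRIM members were called under the 14 alternative fits, and 27 of the 34 called members kept their sign and call in all of those that tested them. The replicate block gave 35 calls, with Trim39 added. The replicate numbers correlated weakly (0.14, -0.09 and 0.05 for the deviations of same-numbered cultures), so they only name cultures. The median log2 fold change of 0.32 depended on the choice of loci and on chromosome medians. It was 0.17 without merged loci, 0.17 with at least 10 counts in every library, 0.22 with no filter and -0.00067 with chromosome medians removed, and it ranged from 0.27 to 0.31 when a culture was left out. Without chromosome medians the direction turned for Trim39 (-0.00067), Hist3h2a,Trim17 (-0.0094), Trim27 (-0.031), Trim11 (-0.038), Trim37 (-0.32) and Trim13 (0.13). Under upper-quartile scaling it turned for Trim13 (0.014) and Trim47,Trim65 (0.029). When a culture was left out, the values ranged from -0.115 to 0.0266 for Trim13, from -0.0164 to 0.109 for Trim27 and from -0.122 to 0.0644 for Trim47,Trim65, none of them called. The 25 untested members had 8 fragments at most in a library, too few to show most changes.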
